A study of Homo sapiens with 8 samples.

Results

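The comparison described here is the effect of a guide RNA named Tet when it was delivered with dCasMINI-VPR, in 2 libraries with that guide (sgTet) and 2 with a non-targeting guide (sgNT). These 4 libraries, of 8 in the series, were chosen by their titles, and their strand-ignoring read counts were described across every gene, genes with few reads included. HEK293T is a transformed line from human embryonic kidney, and the cells used here carry a reporter, a green fluorescent protein gene behind the TRE3G promoter. All 4 groups of the series shared this line, a transfection with activator and guide plasmids, and a sort for mCherry and BFP fluorescence 2 days later. In the other 4 libraries dCas12a-VPR took the place of dCasMINI-VPR, with its own non-targeting (crNT) or Tet (crTet) guide, and they serve here as a second guide comparison that shares no library with the first. The labels do not say whether replicates came from separate transfections, so the p-values measure only the spread between these samples, which may be technical. RNA came from the sorted cells in bulk, so fewer cells with a transcript and less of it per cell cannot be told apart.

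CasMINI is an engineered, very small Cas12f protein, and its dCas form binds DNA without cutting it. VPR is a fusion of the VP64, p65 and Rta activation domains, which recruit the transcription machinery to the place where the guide pairs with DNA. TRE3G is a minimal promoter preceded by repeats of the tet operator, a bacterial sequence that is foreign to the human genome. Binding next to the target needs a short T-rich motif, the PAM, which for CasMINI is TTTA or TTTG. Comparing a targeting with a non-targeting guide asks which transcripts besides the reporter change when the activator is sent to the reporter.

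Reads counted in genes numbered 19433237 and 17474404 in the sgNT libraries and 20443073 and 21081942 in the sgTet libraries, and 3 reads in a library correspond to 0.142 to 0.172 CPM, counts scaled to a common library size. These floors, and the intervals given for ratios of few reads, cover counting error only. The sgTet libraries differed more between themselves than those of any other group (chi-square per degree of freedom 12.5, against 3.80 in sgNT, 3.12 in crNT and 6.47 in crTet), and mitochondrial genes held 4.57% of gene reads in sgTet 1 and 3.49% in sgTet 2, against 3.09% and 3.33% in sgNT. Markers of the HEK293T line were present, with the insulin receptor substrate IRS4 at 864 to 1031 CPM and the RNA-binding protein LIN28B at 122 to 143 CPM in the 4 libraries. The leukocyte gene PTPRC, the T cell gene CD3E and the endothelial cadherin CDH5 had no read in them.

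The reporter gave the largest rise among the genes with a read in every library. EGFP stood at 3.23 and 4.42 CPM in sgNT and at 920 and 1094 CPM in sgTet, 264-fold higher (log2 fold change 8.05 ± 0.13 SE, adjusted p = 3.26e-26). In the dCas12a-VPR libraries EGFP stood at 2.77 and 2.66 CPM in crNT and at 804 and 708 CPM in crTet, and the test of the difference between the guide effects did not pass (-0.07 ± 0.21, adjusted p = 0.904). RELA, whose product p65 supplies 1 of the VPR domains, was not called (0.08, adjusted p = 0.753), nor was the actin gene ACTB (0.19, adjusted p = 0.173). GAPDH, a glycolytic enzyme gene, was not called either (0.02, adjusted p = 0.948), and its sign turned to -0.02 under library size scaling and to -0.01 without sgNT replicate 2 or sgTet replicate 1.

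Of 16606 genes with enough reads for the test, 132 (0.795%) were called at an adjusted p of at most 0.05, 78 of them higher in sgTet (0.47%) and 54 lower (0.325%). The calls fell into a small set of large rises and a larger set of small shifts in both directions. Among the rises, 36 (0.217%) were at least 2-fold and 30 at least 4-fold, while 24 were below 0.5 on the log2 scale. Only 4 of the falls reached 2-fold, and 31 were below 0.5 in size. The median log2 fold change was 0.93 over the called rises, -0.48 over the called falls and 0.00 over all genes tested, whose 5th and 95th percentiles were -0.68 and 0.61. In all 132 called genes the sgTet values lay outside the range of the sgNT values, as they did in 40.9% of all genes tested.

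The balance of rises and falls moved with the scaling and with the libraries. Under scaling by total reads alone the calls were 68 rises and 80 falls. A fit to the 4 dCasMINI-VPR libraries alone kept 64 of the 78 rises and 18 of the 54 falls. All 29 rises of at least 4-fold other than EGFP were still called in that fit. Of these 29, 15 were called without sgNT replicate 1, 18 without sgNT replicate 2, 22 without sgTet replicate 1 and 28 without sgTet replicate 2. Leaving out sgTet replicate 2 gave 1450 calls, 130 of the 132 among them. Leaving out sgTet replicate 1 gave 85, and leaving out sgNT replicate 1 or 2 gave 47 each. The rises of at least 2-fold numbered 23 without either sgNT library and 87 without sgTet replicate 2.

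**Figure D1:**
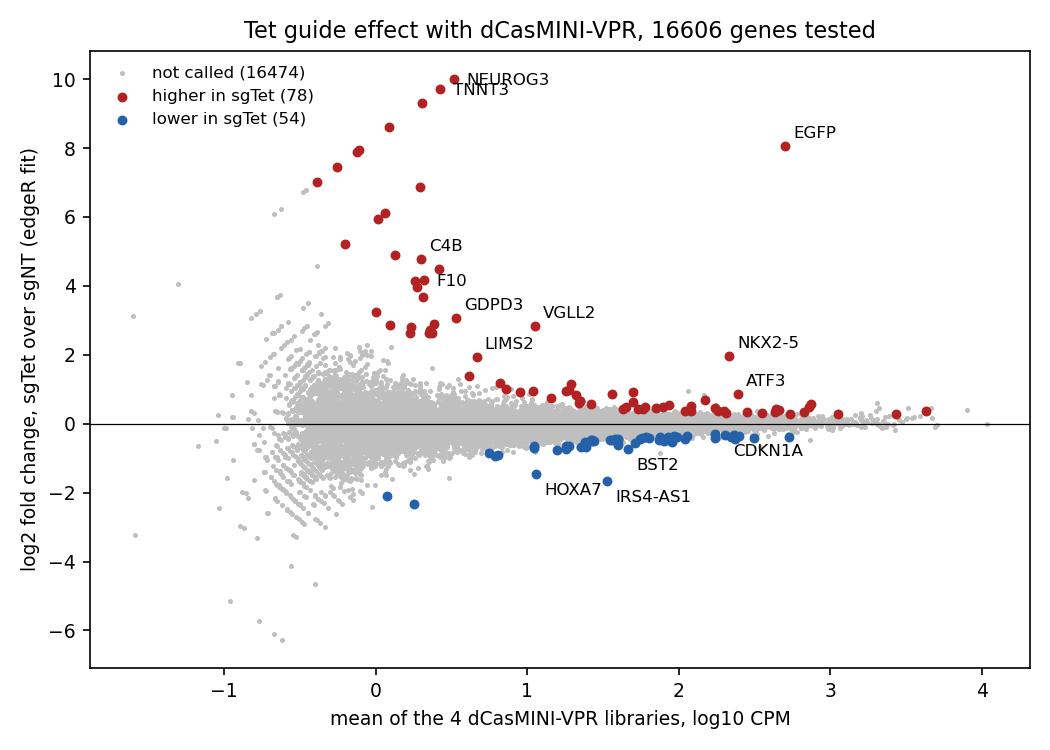
Log2 fold change of sgTet over sgNT (vertical axis) against the mean CPM of the 4 dCasMINI-VPR libraries (horizontal axis, log10) for the 16606 genes tested, with the 78 called rises in red, the 54 called falls in blue and other genes in grey. The large rises lie at the low end of the horizontal axis apart from EGFP, NKX2-5 and VGLL2, and the falls keep close to 0.

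In the plot of fold change against level the large called rises lie among genes with few reads. When the tested genes were split into 4 equal sets by their mean CPM, the lowest set held 20 called rises with a median of 33.2-fold and only 2 called falls. The highest set held 28 called rises with a median of 1.33-fold and 23 called falls. The smallest called rise in the lowest set was 6.21-fold, and its 2 called falls had a median of 4.62-fold. Of the 29 rises of at least 4-fold other than EGFP, 14 were protein coding, 7 were long non-coding or antisense transcripts, 4 were pseudogenes and 4 lay outside the annotation used. Of the genes tested 82.2% were protein coding, as were 92.6% of the called falls and 92.9% of the 42 called rises below 2-fold.

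Regulators of development in other tissues were among the rises. NEUROG3 encodes the basic helix-loop-helix factor that starts endocrine cell formation in the pancreas (hg38 chromosome 10, 69571698 to 69573238, minus strand). It had no read in either sgNT library and 117 and 149 reads in sgTet, at 5.85 and 7.21 CPM, which is at least 81.0-fold higher against a floor of 3 counts over both sgNT libraries (adjusted p = 1.18e-08). With dCas12a-VPR the 4 libraries held 1 read of it, in crTet. VGLL2 encodes a cofactor that binds TEAD factors in skeletal muscle (chromosome 6, 117265558 to 117273565). It was at 2.61 and 2.89 CPM in sgNT and 21.3 and 18.2 CPM in sgTet (2.84 ± 0.22, adjusted p = 2.02e-10), while its crNT and crTet values all lay between 1.82 and 2.43 CPM. NKX2-5, a homeobox factor of heart development (chromosome 5, 173232109 to 173235357), went from 87.3 and 89.1 CPM to 345 and 341 CPM (1.96 ± 0.08, adjusted p = 1.12e-18), against 69.7 to 84.9 CPM in the dCas12a-VPR libraries. TCF23, another helix-loop-helix gene, had 1 read in sgNT and 50 in sgTet, a ratio of 45.7 with a 95% exact counting interval of 7.83 to 1839.8 (adjusted p = 0.0326). The 3 factors named first were called in all 15 alternative fits. TCF23 lost its call in 6 of them, with adjusted p of 0.131 with DESeq2 and 0.323, 0.199 and 0.0503 without sgNT replicate 1, sgNT replicate 2 and sgTet replicate 1.

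Genes that work with these factors were looked up in lists written for the purpose, described by their counts beside 0.47% higher and 0.325% lower over all genes. Of 19 tested cardiac factors and targets only NKX2-5 was called, and the list's median log2 fold change was -0.02. Of 27 tested TEAD, YAP and VGLL genes only VGLL2 was called, with a median of -0.08. Of 24 tested factors of endocrine pancreas and neuron development only NEUROG3 was called, with a median of -0.06. The skeletal muscle list held VGLL2 and TNNT3 among 21 tested, with a median of 0.03. No member of a list of 42 other homeobox genes was called. Of 37 HOX genes tested only HOXA7 was called, as a fall. With dCas12a-VPR 11 of the 37 were called higher, beside 3.56% of all genes tested. The guide effects of 6 HOX genes differed between the activators, beside 1.35% of all genes tested.

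The promoter windows of 4 large risers are shown because these are the sequences in which a near-promoter PAM would lie. They come from RefSeq (GRCh38.p14, windows of 300 bases that lie mostly or wholly before the GENCODE 29 gene start). The NEUROG3 window does not hold that start. The windows are written along the gene's own strand, with TTTA and TTTG in capitals on either strand. A match on the opposite strand therefore reads TAAA or CAAA. VGLL2 lies at chr6:117265308-117265607 (plus strand), NEUROG3 at chr10:69573373-69573672 (minus), F10 at chr13:113122549-113122848 (plus) and UPK1B at chr3:119173348-119173647 (plus).
VGLL2: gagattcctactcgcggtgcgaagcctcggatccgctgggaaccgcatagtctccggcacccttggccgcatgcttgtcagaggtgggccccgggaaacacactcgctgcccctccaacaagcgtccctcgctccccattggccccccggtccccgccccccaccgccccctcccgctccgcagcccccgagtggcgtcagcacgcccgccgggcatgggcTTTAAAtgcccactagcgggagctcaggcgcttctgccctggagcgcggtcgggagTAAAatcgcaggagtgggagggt
NEUROG3: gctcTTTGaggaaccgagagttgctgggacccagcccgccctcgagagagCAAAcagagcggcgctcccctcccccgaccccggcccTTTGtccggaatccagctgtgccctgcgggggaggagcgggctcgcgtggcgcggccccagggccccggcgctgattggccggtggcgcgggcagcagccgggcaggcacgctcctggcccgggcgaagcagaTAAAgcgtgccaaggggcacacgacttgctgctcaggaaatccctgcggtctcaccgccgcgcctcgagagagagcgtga
F10: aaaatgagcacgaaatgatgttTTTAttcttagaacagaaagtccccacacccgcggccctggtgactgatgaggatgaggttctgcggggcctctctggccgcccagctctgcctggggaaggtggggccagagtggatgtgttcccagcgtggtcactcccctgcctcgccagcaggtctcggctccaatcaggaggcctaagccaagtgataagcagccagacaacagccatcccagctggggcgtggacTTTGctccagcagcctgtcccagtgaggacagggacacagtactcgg
UPK1B: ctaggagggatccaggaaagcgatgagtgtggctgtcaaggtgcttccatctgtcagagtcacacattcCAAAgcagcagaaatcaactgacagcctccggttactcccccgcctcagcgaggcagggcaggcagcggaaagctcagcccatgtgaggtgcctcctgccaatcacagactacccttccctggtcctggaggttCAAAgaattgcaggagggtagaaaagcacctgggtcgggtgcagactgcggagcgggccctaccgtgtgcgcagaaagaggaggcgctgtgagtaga
The VGLL2 window holds 3 such matches, the NEUROG3 window 4, and those of F10 and UPK1B 2 each. Of the 29 genes at least 4-fold higher, 11 had a window in the table and all 11 held TTTA or TTTG, as did 87.4% of all 35116 windows. The same letters were in 92.2% of 51 windows of called rises and in 73.7% of 38 windows of called falls. CTATCA, 6 letters of 1 arm of the tet operator, was searched on both strands too. It was in 2 of the 11 windows, those of B3GALT5 and of its overlapping antisense gene B3GALT5-AS1, in 2 of the 51 windows of called rises, and in 5.80% of all windows. A match is a run of letters and not a binding site, the guide sequence was not analysed here, and no binding was measured.

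The other protein-coding rises of at least 4-fold were in genes of several kinds. TNNT3, the troponin T of fast skeletal muscle (chromosome 11, 1919562 to 1938706), was without reads in sgNT, with 90 and 127 reads in sgTet, at least 66.1-fold higher (adjusted p = 1.34e-06). F10, coagulation factor X, had 6 and 2 reads in sgNT and 79 and 82 in sgTet (4.17 ± 0.60, adjusted p = 6.26e-05). UPK1B, a uroplakin of the bladder lining, had 8 and 3 reads in sgNT and 81 and 75 in sgTet (3.68 ± 0.56, adjusted p = 1.31e-04). GDPD3, a lysophospholipase D, had 19 and 8 reads against 109 and 137 (3.05 ± 0.41, adjusted p = 1.88e-05). KISS1R, the kisspeptin receptor, had 6 and 16 reads against 85 and 76 (2.72 ± 0.48, adjusted p = 0.00118), and the inflammasome-matured cytokine IL18 had 10 and 13 against 88 and 70 (2.63 ± 0.56, adjusted p = 0.0118). PLCD4, a phospholipase C, had 3 and 0 reads in sgNT and 55 and 50 in sgTet, a ratio of 32.0 with a counting interval of 10.6 to 158 (adjusted p = 0.00113). In each of these genes the sgTet values lay outside the range of the sgNT values, as in all 132 called genes and in 40.9% of all genes tested. With DESeq2 TNNT3 was no longer called (adjusted p = 0.132). PLCD4 lost its call without sgNT replicate 2 (0.0696), KISS1R without sgNT replicate 1 (0.107), and IL18 without sgNT replicate 1 (0.236), sgNT replicate 2 (0.12) or sgTet replicate 1 (0.164).

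Several large rises sat at loci with near-identical or overlapping genes. C4B and C4A, near-identical genes for complement component C4 on chromosome 6, had 5 and 1 reads in sgNT and 157 and 159 in sgTet. Their ratios were 28.7 (counting interval 12.03 to 89.6, adjusted p = 2.32e-05) and 145 (25.7 to 5773, adjusted p = 0.0252), and the division of reads between these copies is uncertain. C4A lost its call with DESeq2 (adjusted p = 0.349) and without sgNT replicate 1 (0.323) or 2 (0.311). With F10 these made 3 called rises among 21 tested complement and coagulation genes, beside 0.47% over all genes tested. The median of that list was -0.06. B3GALT5, a galactosyltransferase, and B3GALT5-AS1 overlap on opposite strands of chromosome 21 and rose together, by 2.63 ± 0.46 (adjusted p = 0.00118) and 2.91 ± 0.48 (adjusted p = 4.33e-04). F10 overlaps an unnamed antisense gene that was also called. NFIA-AS2, antisense to the transcription factor gene NFIA, had 1 read in sgNT and 83 in sgTet, a ratio of 75.8 with a counting interval of 13.2 to 3031 (adjusted p = 0.00218, and 0.117 without sgNT replicate 1). Reads over both of 2 overlapping genes are among the ambiguous reads, which were left out. The reads that were counted do not tell which strand they came from.

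Among the other low-level rises were the long non-coding RNAs LINC02798 (7 reads in sgNT and 141 in sgTet, adjusted p = 1.32e-04), LINC01632 (11 and 89 reads, adjusted p = 0.0306) and PRECSIT (17 and 118 reads, adjusted p = 0.0165). NDUFB8, a subunit of respiratory complex I that overlaps HIF1AN on the opposite strand, had 7 reads in sgNT and 74 in sgTet (adjusted p = 0.0162). The strand columns of NDUFB8 held 4 forward and 3 reverse reads in sgNT and 41 and 35 in sgTet, and neither change was called. Ambiguous and multimapping reads are left out of all these counts, so the level of NDUFB8 itself may be higher than counted, which was not tested. LINC02798 was called in every alternative fit. The other 3 lost their calls without sgNT replicate 1 (0.139 for LINC01632, 0.301 for PRECSIT and 0.105 for NDUFB8) and without sgTet replicate 1 (0.237, 0.0761 and 0.096), and LINC01632 and NDUFB8 also without sgNT replicate 2 (0.387 and 0.287). Of the 29 rises of at least 4-fold, 6 had no read in any dCas12a-VPR library.

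**Figure D2:**
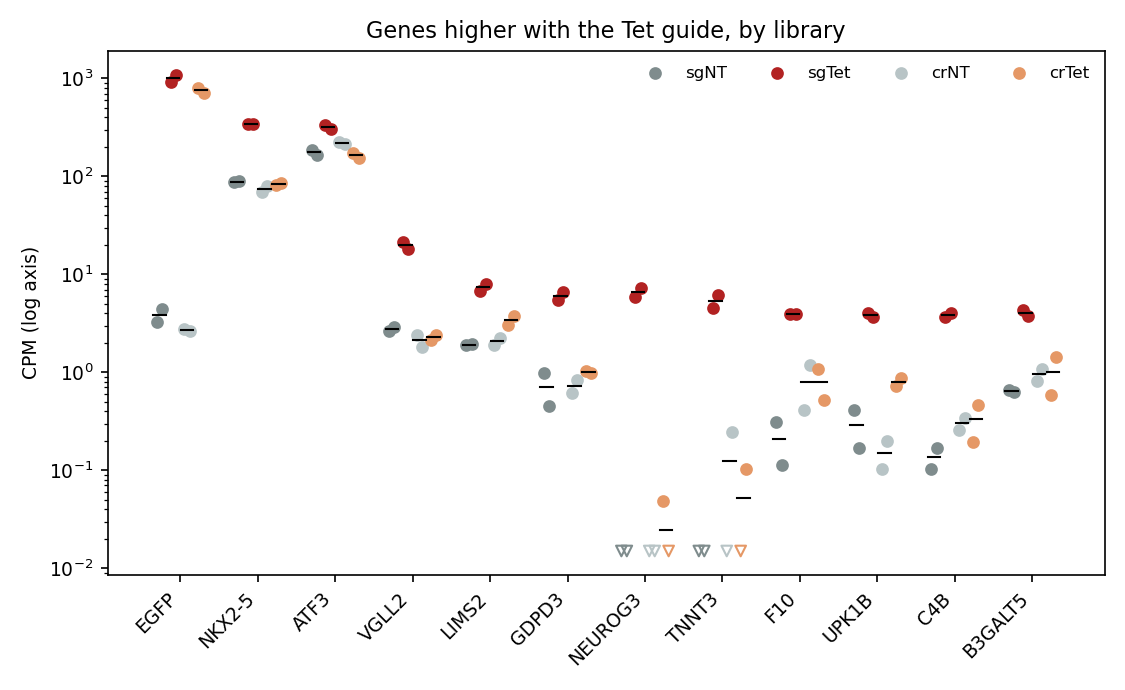
CPM on a log axis of 12 genes called higher in sgTet, with 1 point per library (grey sgNT, red sgTet, pale grey crNT, orange crTet), group means as black bars and libraries with no read as open triangles at the bottom. For every gene both sgTet points lie above both sgNT points, and in every gene shown the crTet points lie below the sgTet points.

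Genes next to the large risers were examined for rises of their own. Of the 9 tested genes within 500 kb of NKX2-5 none was called, with a smallest adjusted p of 0.160. The same held for 4 genes around VGLL2 (0.624), 8 around NEUROG3 (0.160), 9 around TNNT3 (0.265) and 48 around GDPD3 (0.0620). Over all genes tested 0.795% were called, so sets of this size would hold few calls or none anyway. The absence of calls is therefore no result about these neighbours. MAPK3, whose annotated end lies 0.249 kb from GDPD3, was at 160 CPM in sgNT and 152 CPM in sgTet (adjusted p = 0.742). The 25 risers of at least 4-fold with a position had 95 tested neighbours within 100 kb, of which 6 were called. Those 6 are themselves risers of at least 4-fold. They form the 3 pairs named above, C4A with C4B, F10 with its antisense gene, and B3GALT5 with B3GALT5-AS1.

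Moderate rises concerned an adhesion adaptor, regulators of RNA and stress, and a chaperone. LIMS2, an adaptor of integrin adhesions, was at 1.90 and 1.93 CPM in sgNT and 6.80 and 7.89 CPM in sgTet (1.94 ± 0.29, adjusted p = 1.23e-04), the 1 called gene among 27 tested integrin genes. HSPE1, the mitochondrial co-chaperonin, rose from 11.99 and 12.14 to 28.6 and 24.9 CPM (1.15 ± 0.18, adjusted p = 2.45e-04), and its reads may be shared with processed pseudogenes. It was the 1 called member of 25 tested heat shock genes. RBM47, an RNA-binding protein of epithelia, went from 12.6 and 12.9 to 26.2 and 23.8 CPM (0.97 ± 0.14, adjusted p = 9.19e-05). ATF3, a stress-responsive transcription factor, went from 184 and 166 to 331 and 303 CPM (0.86 ± 0.08, adjusted p = 5.37e-09). TCAF1, a regulator of TRP channels, went from 117 and 113 to 179 and 190 CPM (0.68 ± 0.08, adjusted p = 1.51e-06). NME1, a nucleoside diphosphate kinase (0.93 ± 0.12, adjusted p = 1.09e-05), and TMEM258, a subunit of the oligosaccharyltransferase (0.88 ± 0.13, adjusted p = 1.57e-04), are named because of their values. All 7 genes were called in each of the 15 alternative fits.

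The lists of mitochondrial mRNAs, small respiratory chain subunits and ribosomal proteins supplied 11 of the called rises, all below 2-fold. Over all genes tested 0.47% were called higher. NDUFB8, the complex I subunit named above with a rise of 3.24 in few counted reads, is not in these lists. Of 13 mRNAs of the mitochondrial genome the complex I subunit MT-ND3 (637 and 570 CPM in sgNT, 873 and 915 in sgTet, adjusted p = 7.93e-05) and the cytochrome oxidase subunit MT-CO3 (3619 and 3894 CPM against 5292 and 4493, adjusted p = 0.0022) were called, with a list median of 0.38. That median was 0.15 without sgTet replicate 1 and 0.54 without sgTet replicate 2, and 12 of the 13 were called in the latter case. MT-CO3 lost its call without sgNT replicate 1 (0.246) or 2 (0.050) or sgTet replicate 1 (0.0748). Of 43 tested nuclear genes for small respiratory chain subunits 5 rose (UQCRQ, UQCR10, ATP5MF, ATP5PF and NDUFA3), with a median of 0.13. RPS27 and RPS26 rose among 32 tested proteins of the small ribosomal subunit, and RPL38 and RPL23 among 50 of the large subunit, by 0.27 to 0.48, with list medians of 0.13 and 0.06. Most of these calls were lost in at least 1 fit that left out a library, and each such fit leaves 1 library in that group. Without sgNT replicate 1 those of UQCRQ, UQCR10, ATP5PF, NDUFA3, RPS26, RPL38 and RPL23 were lost (adjusted p from 0.0913 to 0.358), and without sgNT replicate 2 those of UQCR10, ATP5MF, ATP5PF, NDUFA3 and all 4 ribosomal genes (0.078 to 0.387). UQCR10 and ATP5PF were also lost without sgTet replicate 1 (0.389 and 0.0699), and RPS26 and RPL23 without either crNT library (0.0733 to 0.0952). Called rises had a median exon length of 2359 bases, against 4543 over all genes tested and 4326 for called falls. The part of the mitochondrial share and of gene length in these rises was not tested.

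Some of the rises were seen in the strand-ignoring counts and not in the strand columns. The deposited files also hold 2 strand columns, in which a read over 2 genes on opposite strands is still counted. In 19 called genes the strand columns together held at least 1.5 times the reads of the strand-ignoring column, 15 of them rises, and 6 of the 19 were called in at least 1 strand column, against 88 of the other 113. UQCR10, a subunit of respiratory complex III, had 645 reads in sgNT and 1071 in sgTet when strand was ignored, but 3139 and 3281 forward and 3110 and 3406 reverse reads, with log2 fold changes of -0.05 and -0.0015. TMA7, a small gene linked to translation, had 461 and 965 reads when strand was ignored, and changes of 0.04 and -0.01 in the strand columns. The rises of UQCRQ, 0.64 when strand was ignored, and of the intermediate filament gene VIM, 0.46, came to 0.17 and 0.19 with forward reads and were not called (adjusted p = 0.476 and 0.287). VIM was also not called without sgNT replicate 1 (0.0939), sgNT replicate 2 (0.124) or sgTet replicate 1 (0.0856), nor TMA7 without sgNT replicate 2 (0.118) or sgTet replicate 1 (0.123). ATP5PF went from 0.47 to 0.01 (0.988). GDPD3 is another of the 19, and its rise was 3.20 and 2.85 in the strand columns, called in both. PLCD4, with 3 reads in sgNT and 105 in sgTet when strand was ignored, had 108 and 183 forward and 91 and 213 reverse reads, with log2 fold changes of 0.64 and 1.09 that were not called (adjusted p = 0.431 and 0.079).

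**Figure D3:**
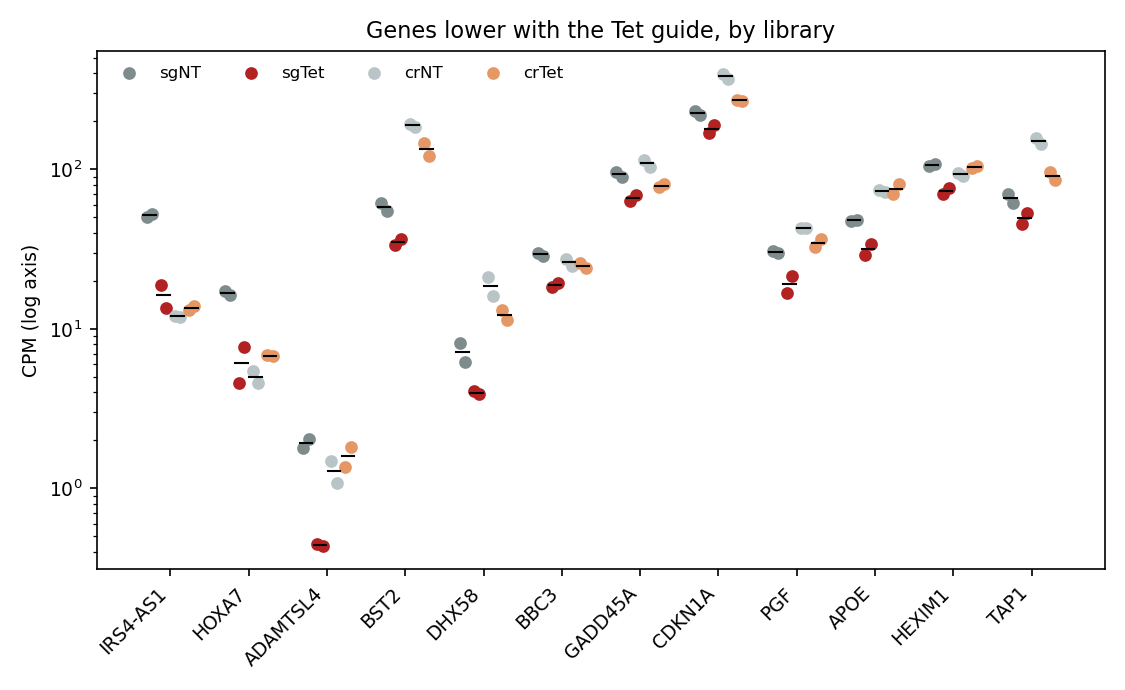
CPM on a log axis of 12 genes called lower in sgTet, with 1 point per library (grey sgNT, red sgTet, pale grey crNT, orange crTet) and group means as black bars. Both sgTet points lie below both sgNT points in each gene, while crNT lies near sgTet for IRS4-AS1 and HOXA7 and above sgNT for BST2, DHX58, CDKN1A and TAP1, among others.

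The 4 falls of at least 2-fold were those of IRS4-AS1, HOXA7, ADAMTSL4 and the unannotated ENSG00000286989.1, and in the first 2 the level in sgNT stood apart from the other groups. IRS4-AS1, antisense to IRS4 on chromosome X, was at 50.4 and 52.6 CPM in sgNT and 19.0 and 13.5 CPM in sgTet (-1.67 ± 0.14, adjusted p = 4.96e-10), and at 11.9 to 13.9 CPM in the dCas12a-VPR libraries. HOXA7, a homeobox gene of the HOXA cluster, was at 17.3 and 16.3 CPM in sgNT, 4.55 and 7.69 CPM in sgTet (-1.45 ± 0.20, adjusted p = 4.43e-05) and 4.58 to 6.83 CPM with dCas12a-VPR. Both overlap a gene on the opposite strand, and in the strand columns the changes were -0.80 and -0.72 for IRS4-AS1, called in both, and -0.53 and -0.57 for HOXA7 (adjusted p = 0.161 and 0.0858). In 7 of the 54 called falls, and 5 of the 78 called rises, the crNT mean lay nearer to sgTet than to sgNT on the log2 scale. ADAMTSL4, a matrix protein gene, fell from 35 and 36 reads to 9 and 9 (-2.10 ± 0.53, adjusted p = 0.0447), a call lost in 11 of 15 alternative fits, including those without sgNT replicate 1 (0.183) or 2 (0.300), sgTet replicate 1 (0.241) and any 1 of the dCas12a-VPR libraries (0.0505 to 0.0709).

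Of 35 tested p53 targets 7 fell and none rose, beside 0.325% lower and 0.47% higher over all genes tested. The list median was -0.23. With dCas12a-VPR 15 of the 35 fell and 1 rose, with a median of -0.27, beside 2.75% lower and 3.56% higher over all genes tested. BBC3, which encodes the death-promoting protein PUMA, went from 30.1 and 28.6 to 18.2 and 19.3 CPM (-0.65 ± 0.13, adjusted p = 0.00428). GADD45A, a DNA damage gene, went from 96.5 and 90.1 to 63.5 and 69.4 CPM (-0.49 ± 0.09, adjusted p = 0.00158), and the death receptor gene TNFRSF10B from 204 and 192 to 137 and 157 CPM (-0.43 ± 0.08, adjusted p = 0.00149). CDKN1A, which encodes the cell cycle inhibitor p21, BAX, FDXR and PHLDA3 were the other 4, at -0.33, -0.35, -0.43 and -0.49. None of the 7 was called without sgNT replicate 1, where BBC3, GADD45A and TNFRSF10B had adjusted p of 0.120, 0.117 and 0.135, and the list median was -0.25. The list held 3 called falls without sgNT replicate 2 and 3 without sgTet replicate 1, and 11 falls with 1 rise without sgTet replicate 2. BAX was also lost without either crNT library (0.0683 and 0.0694) and PHLDA3 without either crTet library (0.0534 and 0.0544). Genes of S phase and of mitosis gave no call among 54 tested, with a median of 0.06.

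Of 47 tested interferon response genes 5 fell and none rose, beside 0.325% lower and 0.47% higher over all genes tested. The list median was -0.16. With dCas12a-VPR 27 of the 47 fell and 2 rose, with a median of -0.42, beside 2.75% lower and 3.56% higher over all genes tested. BST2, the virus-tethering membrane protein, went from 61.5 and 55.1 to 33.5 and 36.3 CPM (-0.74 ± 0.10, adjusted p = 1.38e-05) and was called in all 15 alternative fits. DHX58, a regulator of RNA sensing, went from 8.20 and 6.18 to 4.05 and 3.92 CPM (-0.85 ± 0.21, adjusted p = 0.041). OAS3, a synthetase that activates RNase L (-0.34), LGALS3BP, a secreted glycoprotein (-0.37), and TAP1, a peptide transporter of antigen presentation (-0.42), were the other 3. The class I genes HLA-B and HLA-C fell by 0.30 and 0.38, and reads of these similar genes may be shared. The summed level of the interferon list was 4178 and 4011 CPM in sgNT, 3516 and 3643 CPM in sgTet, 8433 and 8278 CPM in crNT and 6881 and 6548 CPM in crTet, so both dCas12a-VPR groups stood above both dCasMINI-VPR groups. The 5 falls became 1 without sgNT replicate 1, 2 without sgNT replicate 2 and 13 without sgTet replicate 2, and DHX58 had an adjusted p of 0.438, 0.0528 and 0.173 without sgNT replicate 1, sgNT replicate 2 and sgTet replicate 1. OAS3, LGALS3BP and TAP1 were lost without sgNT replicate 1 (0.290, 0.107 and 0.415) or 2 (0.147, 0.0807 and 0.0552), TAP1 without sgTet replicate 1 (0.285), and DHX58 and TAP1 without either crNT library (0.0508 to 0.0592). HLA-B and HLA-C were lost without either sgNT library (0.267 to 0.328), sgTet replicate 1 (0.239 and 0.367) or either crNT library (0.0545 to 0.0952), and HLA-C without either crTet library (0.0825 and 0.0809).

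Other falls were spread over functions. APOE, the lipid carrier apolipoprotein E, and HEXIM1, an inhibitor of the elongation factor P-TEFb, fell by 0.61 ± 0.10 (adjusted p = 9.73e-04) and 0.53 ± 0.08 (adjusted p = 2.39e-04), were called in all 15 alternative fits and are named because of their values. PGF, a placental growth factor, went from 30.8 and 29.7 to 16.7 and 21.3 CPM (-0.67 ± 0.12, adjusted p = 0.00242). RASGRP3, an activator of Ras proteins, fell by 0.92 (adjusted p = 0.0197), and SPDYC, a partner of cyclin-dependent kinases, fell by 0.75 (adjusted p = 0.00469). FZD10-AS1, ZNF513, RTL5 and TSPAN11 fell by 0.66 to 0.94 with adjusted p from 0.0241 to 0.0484. The ER stress gene SDF2L1, at -0.36 (adjusted p = 0.0285), was the 1 called gene of 50 in the unfolded protein and ATF4 list. Of 45 immediate early genes ATF3 rose and CSRNP1 fell (-0.37, adjusted p = 0.0353), with a median of -0.16. The 9 falls from PGF to CSRNP1 were not called without sgNT replicate 1 (adjusted p from 0.0838 to 0.435). Without sgTet replicate 1 all 9 were lost (0.0761 to 0.44), and without sgNT replicate 2 all but PGF, SPDYC and ZNF513 (0.0871 to 0.282). FZD10-AS1, RTL5, TSPAN11, SDF2L1 and CSRNP1 were lost without either crNT library too (0.0537 to 0.081), and TSPAN11 without sgTet replicate 2 (0.0642) or crTet replicate 2 (0.0514).

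**Figure D4:**
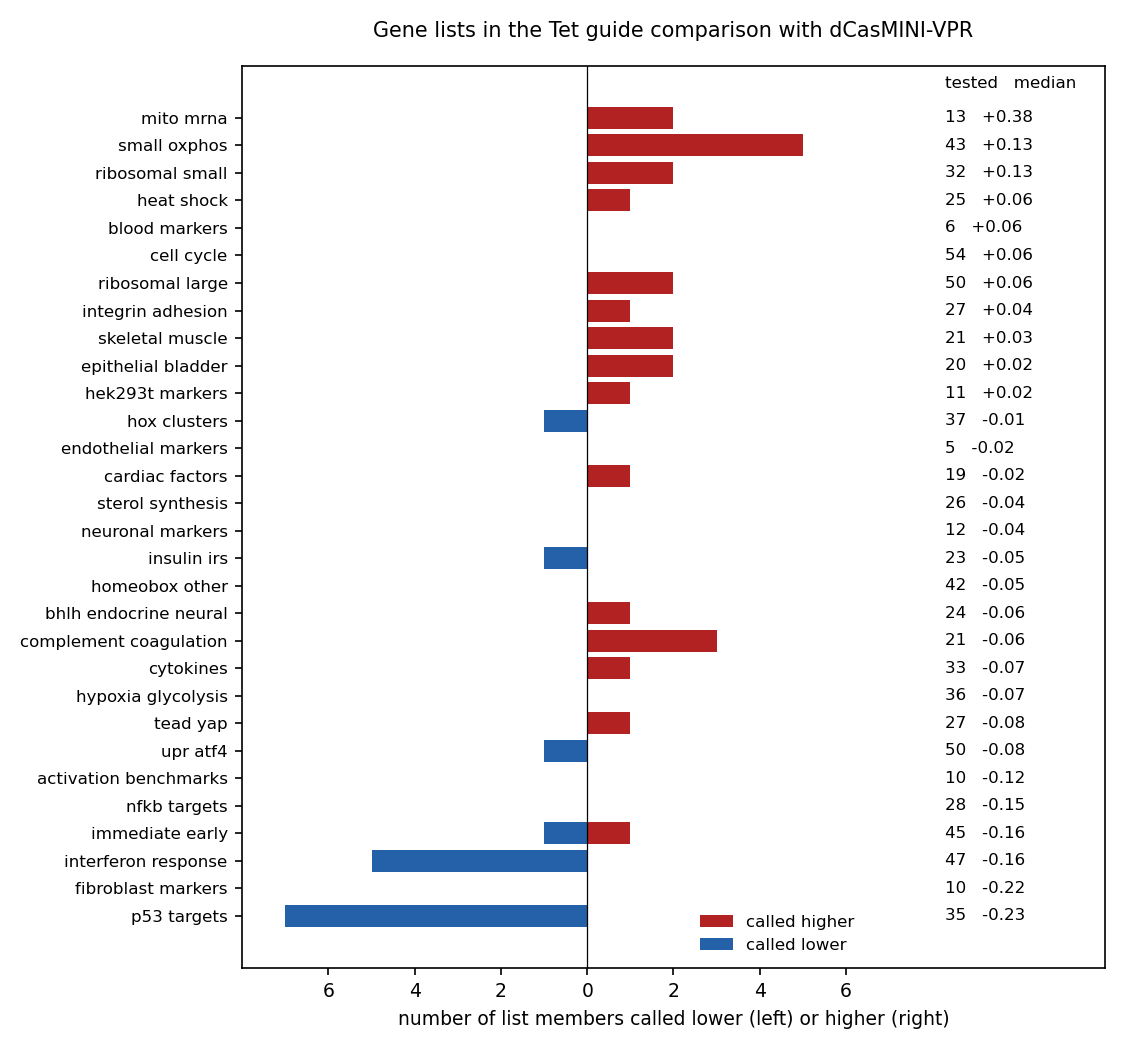
Number of members called lower (blue, left) and higher (red, right) in each of 30 gene lists, ordered by the median log2 fold change, with the number of members tested and that median printed at the right. The p53 list has the most falls, 7 of 35 tested, and the list of small respiratory chain subunits the most rises, 5 of 43.

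The plot of lists shows that most of them held at most 1 called gene. No member was called among 28 NF-kB targets (median -0.15), 26 sterol synthesis genes (-0.04), 36 hypoxia and glycolysis genes (-0.07) or 10 genes often used to test CRISPR activators (-0.12). Markers of neurons, blood cells, fibroblasts and endothelium gave no call among 12, 6, 10 and 5 tested members. The summed level of the blood markers was 38.4 and 39.5 CPM in sgNT and 38.6 and 32.9 CPM in sgTet, and that of the fibroblast markers 89.9 and 106 CPM against 93.9 and 103 CPM. Of the 11 HEK293T markers VIM was called, as a rise.

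The guide effects of both activators were set side by side, since they share no library. Of the 78 rises 25 (32.1%) were among the 592 genes called higher with dCas12a-VPR (3.56% of genes tested), which is 4.22% of the latter, and 55 had the same direction. Of the 54 falls 15 (27.8%) were among the 457 called lower with dCas12a-VPR (2.75%), which is 3.28% of the latter. The direction was the same for 40 of the 54. No share of all genes tested with the same direction is given here, so the 55 and the 40 stand without a background. Of the 42 rises below 2-fold 21 were called higher with dCas12a-VPR, and of the 35 rises of at least 2-fold other than EGFP 3 were, namely UPK1B, KISS1R and HSPE1. UPK1B went from 2 and 4 reads in crNT to 15 and 17 in crTet, KISS1R from 19 and 7 to 50 and 42, and HSPE1 from 128 and 142 to 244 and 384. ATF3 and LINC02798 were called in opposite directions with the activators, at -0.42 and -3.17 with dCas12a-VPR, as was TAF15, an RNA-binding protein gene, at -0.35 with dCasMINI-VPR and 0.35 with dCas12a-VPR. The fall of TAF15 was called in 8 of 15 alternative fits and in none that left out sgNT replicate 1 (adjusted p = 0.231), sgNT replicate 2 (0.349) or sgTet replicate 1 (0.436).

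Testing the difference between the guide effects itself called 224 genes (1.35%), of which 23 were among the 132. The other 201 were not called in the sgTet comparison, and 176 of them were called with dCas12a-VPR. Among the rises 15 of 78 differed, led by NKX2-5 (1.80 ± 0.11, adjusted p = 8.52e-13), ATF3 (1.28 ± 0.11, adjusted p = 3.12e-09), VGLL2 (2.72 ± 0.36, adjusted p = 2.04e-05), TCAF1 (0.83 ± 0.11, adjusted p = 4.21e-05) and LINC02798 (7.32 ± 1.09, adjusted p = 1.85e-04). Among the falls 8 of 54 differed, led by IRS4-AS1 (-1.84 ± 0.20, adjusted p = 7e-07) and HOXA7 (-1.90 ± 0.30, adjusted p = 5.55e-04). These 7 differences, and those of HEXIM1, TAF15 and ZDHHC20, were called in every alternative fit in which DESeq2 and edgeR gave an adjusted p. The count for the difference of guide effects between activators, 224, became 149 and 25 without sgNT replicate 1 and 2, 30 and 62 without crNT replicate 1 and 2, 80 without crTet replicate 1 and 1820 without sgTet replicate 2. Of the 29 rises of at least 4-fold, 8 differed, and for genes with almost no read in the dCas12a-VPR libraries the test has little to go on: for NEUROG3 the difference was 7.70 with a fitted error too large to use (adjusted p = 0.9997).

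**Figure D5:**
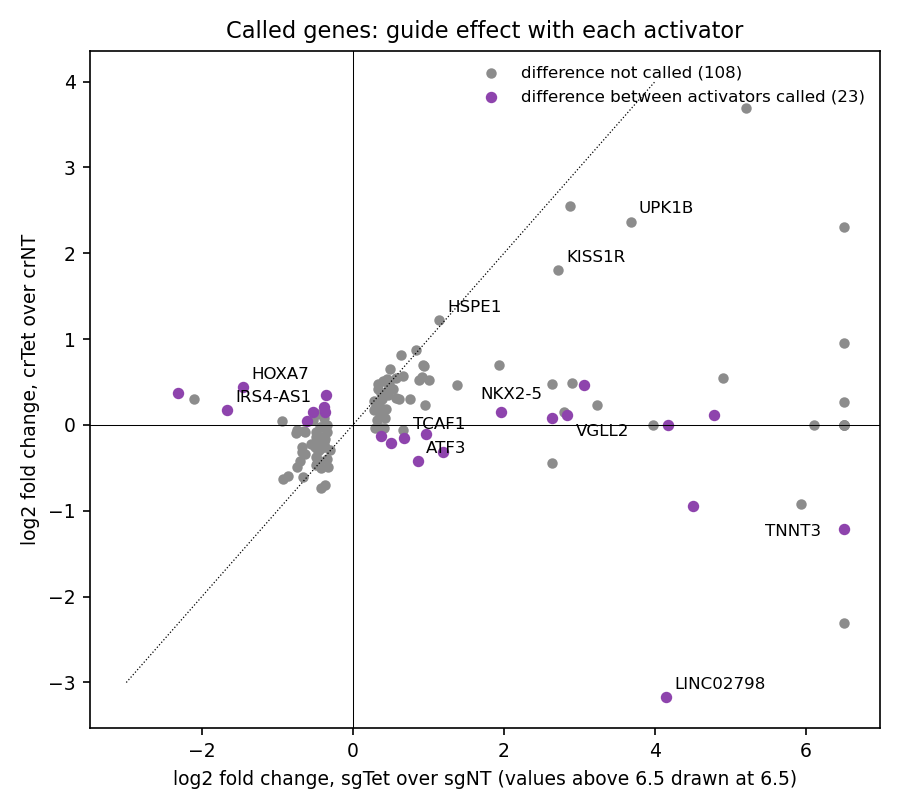
Log2 fold change of crTet over crNT (vertical axis) against that of sgTet over sgNT (horizontal axis, values above 6.5 drawn at 6.5) for the 131 called genes other than EGFP, with the 23 genes whose guide effects differed in purple and a dotted line of equal effects. UPK1B, KISS1R and HSPE1 lie toward that line, while NKX2-5 and VGLL2 lie near 0 on the vertical axis.

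Genes with too few reads for the test were described by their reads alone. There were 15016 such genes with at least 1 read. Of these, 611 had no read in sgNT and at least 1 in each sgTet library, against 379 with the groups exchanged, where the sgTet libraries were sequenced more deeply. In the dCas12a-VPR libraries the same counts were 516 and 392. With at least 5 reads asked in each library they were 25 and 15 for sgTet and sgNT, and 12 and 7 for crTet and crNT. The 6 with the most reads in sgTet were B4GALT1-AS1 (10 and 9 reads), RAB42, a small GTPase gene (7 and 11), the pseudogenes KMT5AP2 (13 and 5), EEF1A1P7 (15 and 3) and THA1P (5 and 12), and the long non-coding ENSG00000231704.6 (10 and 7). They were at least 5.18-fold to 5.79-fold higher in sgTet against 3 counts over both sgNT libraries. All 6 had reads in both crNT libraries.

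At the threshold itself the values ran on without a step. PARP10 (-0.48, adjusted p = 0.0476) and TSPAN11 (-0.66, 0.0484) lay just inside it, and LSM3 (0.33, 0.0516) and UGT8 (0.49, 0.0519) just outside.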

How the data were processed

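Poly(A) RNA of the 8 libraries was read on an Illumina instrument. The submitters' processing notes name hg38 and STAR, without its version, and the deposited files hold raw counts of reads per gene with no normalization, in 60652 gene rows. The strand-ignoring count column was used, and the 4 leading rows without a gene were left out, with unmapped (8.32% to 14.4% of all reads), multimapping (3.54% to 5.64%), featureless (1.46% to 2.23%) and ambiguous reads (10.4% to 11.2%). Forward-strand reads were 50.3% to 50.7% of the strand-column total, and nothing states that the kit marks strand. Symbols were matched for 42062 rows and GENCODE 29 positions for 58405.

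All 8 libraries entered 1 edgeR 4.0.16 quasi-likelihood fit (R 4.3.3, robust, TMM, filterByExpr by group, 4 group means, 2-sided), which had 4 residual and 28.9 prior degrees of freedom and a common biological coefficient of variation of 8.04%. The contrasts were sgTet minus sgNT, crTet minus crNT and their difference. A call needed an adjusted p (Benjamini-Hochberg over all 16606 genes tested) no greater than 0.05. CPM use TMM-adjusted library sizes, and log2 fold changes are given ± SE (their size over the square root of F). Where a group had no read, the fold is a bound against 3 counts over its 2 libraries, and ratios of few reads have exact 95% binomial intervals. The scripts were tested on simulated data.

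Named genes were the 12 largest called rises and 12 largest falls that have symbols and a log2 CPM averaging 1 or more, the 15 largest rises and 5 largest falls below that level, up to 3 called members of each of 31 lists (1021 of 1025 genes matched; 1 list and its called member are not reported here), 6 genes below the filter, 6 by the difference between activators, 4 controls and 2 genes on either side of the threshold. Others were named because of their values: CDKN1A, BAX, FDXR, PHLDA3, TAP1, HLA-B, HLA-C, APOE, HEXIM1, NME1, TMEM258, TMA7, TAF15, UQCR10, NDUFA3, ZDHHC20 and ENSG00000286989.1. The genes, lists and comparison were chosen with earlier results of these data known. Alternatives were library size scaling, DESeq2 1.42.0, no filter, the 4 dCasMINI-VPR libraries alone, either strand column, a replicate block and leaving out each library. The split of called genes by their reads in the strand columns was added after the data were seen.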

Additional observations from a re-analysis of the deposited data

Results flagged for a closer look

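The guide effect differed between dCasMINI-VPR and dCas12a-VPR in 224 genes by the edgeR test of the difference. Among the genes chosen by the naming rule the log2 difference was 1.80 for NKX2-5 (adjusted p = 8.52e-13), 1.28 for ATF3 (3.12e-09), 2.72 for VGLL2 (2.04e-05), 0.83 for TCAF1 (4.21e-05), 7.32 for LINC02798 (1.85e-04), -1.84 for IRS4-AS1 (7e-07) and -1.90 for HOXA7 (5.55e-04), and leaving out any 1 library kept these 7 calls.

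The other 7 genes chosen by the naming rule whose differences were called lost that call without at least 1 library. RBM47 (1.07, adjusted p = 0.0049) was lost without crNT replicate 1 (0.054), and F10 (4.17, 0.00761) without sgNT replicate 2 (0.118) or crNT replicate 2 (0.173). TNNT3 (10.93, 0.00555) had no read in sgNT, so the size of its difference depends on the prior count, and it was lost without crNT replicate 2 (1). C4B (4.66, 0.0145) was lost without sgNT replicate 2 (0.0787), either crNT library (0.0693 and 0.112) or crTet replicate 1 (0.0615). GDPD3 (2.59, 0.030) was lost without sgNT replicate 2 (0.233) or any 1 dCas12a-VPR library (0.0717 to 0.189). B3GALT5 (2.55, 0.0498) was lost without sgNT replicate 1 (0.101) or 2 (0.240), sgTet replicate 1 (0.123), either crNT library (0.15 and 0.214) or crTet replicate 1 (0.163). SDF2L1 (-0.51, 0.0258) was kept without sgTet replicate 2 alone, with adjusted p from 0.0536 to 0.201 when any other library was left out.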

How the results depend on the processing

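Of 132 calls, 25 were made in all 15 alternatives, 21 rises and 4 falls, with 11 of the 29 rises of at least 4-fold among them. No filter on low counts gave 276 calls (133 rises and 143 falls), with 1 of the added calls in a gene below the filter, and the 4 libraries alone gave 86. DESeq2 gave 122 and library size scaling 148, of which 68 were rises. Leaving out 1 library gave 47 to 1450 calls and 23 to 87 rises of at least 2-fold. The highest counts came without sgTet replicate 2. Every fit without 1 library leaves a single library in that group. The difference of guide effects between activators gave 450 calls without the filter, 95 with forward-strand counts and 25 to 1820 with 1 library left out. The guide effect on GAPDH was -0.0242 under library size scaling and between -0.00923 and 0.0407 with 1 library left out. Asking for 2 reads in each sgTet library left 256 of the 611 genes. The cause of these moves was not tested. Replicate numbers did not pair the libraries (deviation correlation 0.03), and a fit with a replicate block gave 167 calls and 347 for the difference of guide effects between activators.

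Depth limits the low end, where 3 reads are 0.142 to 0.172 CPM. With 2 libraries a group, a gene that missed the threshold is not shown to be unchanged. Of the 16606 genes tested 2046 had an unadjusted p under 0.05 in the edgeR test, the 132 called genes among them.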
